A study of Rattus norvegicus with 18 samples.

Results

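TGF-beta and BMP signaling genes were followed in the healing rat femur. The genes were those with the symbols Tgfb1, Tgfb2, Tgfb3, Tgfbr1, Tgfbr2, Tgfbr3, Bmp4, and Pmepa1, and every probe set annotated to one of them was taken, whatever its values. Of the 8 symbols, 7 had a probe set, and they had 10 probe sets of the 8799 on the array. No probe set carried the symbol Tgfbr2 in the annotation used, so that no value is given for it. Of the 10 probe sets, 5 passed a filter on brightness, as did 4669 in all, and they stood for 4 genes: Tgfb1, Tgfb2, Tgfb3 (2 probe sets), and Pmepa1. To pass, a probe set needed 3 or more of the 18 arrays at or above a signal of 200.

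The rats were intact female Sprague-Dawley rats, young (6 weeks old at fracture), adult (26 weeks), or older (52 weeks). Each age had 1 array without fracture and 1 array at each of 5 times (3 days, 1 week, 2 weeks, 4 weeks, and 6 weeks) after a closed fracture of a femur that held a steel rod. The no-fracture rats were sham controls. The RNA of 2 rats was pooled on each array, and it came from the middle of the femur with its cortical bone, its marrow, and, after fracture, the callus around the break. An age at a time was therefore a single array, so that the 3 ages served as the replicates of a time (n = 3 arrays) and the 5 times after fracture as the replicates of an age (n = 5 arrays). The p-values therefore rest on how arrays of different ages or times vary, and not on how rats of one group vary.

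Signals are intensities in arbitrary units. The median of an array lay between 137.2 and 182.6, and 37.2% to 43.3% of its signals were below the floor of 100, to which lower values were raised before log2 was taken. The number of arrays limits the precision. The tissue held bone, since the summed signal of 6 osteoblast and bone matrix genes was 69529 to 122627 after fracture and 21608 to 65959 without. It also held muscle, with 6 skeletal muscle genes at 38102 to 145548 after fracture and 77296 to 160168 without, and marrow, with 3 neutrophil genes at 523 to 54120 after fracture and 39266 to 67994 without. RNA integrity, read from Gapdh as its 5' signal over its 3' signal, gave 0.650 to 0.913 on 17 arrays and 0.257 on that of young rats at 6 weeks. Fewer cells of a type and less RNA per cell cannot be told apart in such samples.

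TGF-beta ligands are stored in bone matrix and released or made anew after injury. They bind a type II receptor, which activates a type I receptor kinase, and the receptor then phosphorylates Smad proteins that enter the nucleus and switch genes on or off. BMPs, named for their power to induce bone, are ligands of the same superfamily that act through their own receptors and Smads. Both branches are known for their part in the growth of cartilage and bone in a fracture callus.

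Promoters are shown for the members that rose after fracture, Pmepa1 and Tgfb3, and for Tgfb1, a ligand with no call. Each sequence runs from 250 bases before to 50 bases from the transcript start that the RefSeq promoter table for build GRCr8 uses, on the strand of the gene. For Pmepa1, Tgfb1, and Tgfbr3 that start is the outer end of the annotated gene, while for the other 5 genes it lies inside it, so that the windows of Tgfb2, Tgfb3, Tgfbr2, and Bmp4 fall wholly within the annotated gene. Capitals mark CAGAC or its reverse complement GTCTG, the core of the CAGA box to which Smad proteins bind. The windows are chr3:182478600-182478899 (minus strand) for Pmepa1, chr6:111456897-111457196 (minus strand) for Tgfb3, and chr1:90324062-90324361 (plus strand) for Tgfb1.
Pmepa1: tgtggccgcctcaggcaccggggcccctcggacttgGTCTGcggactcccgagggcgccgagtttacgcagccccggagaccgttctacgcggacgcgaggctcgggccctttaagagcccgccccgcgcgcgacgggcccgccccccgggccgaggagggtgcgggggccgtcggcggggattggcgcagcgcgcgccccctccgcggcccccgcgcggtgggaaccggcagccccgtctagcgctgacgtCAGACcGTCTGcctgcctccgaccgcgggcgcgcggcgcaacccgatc
Tgfb3: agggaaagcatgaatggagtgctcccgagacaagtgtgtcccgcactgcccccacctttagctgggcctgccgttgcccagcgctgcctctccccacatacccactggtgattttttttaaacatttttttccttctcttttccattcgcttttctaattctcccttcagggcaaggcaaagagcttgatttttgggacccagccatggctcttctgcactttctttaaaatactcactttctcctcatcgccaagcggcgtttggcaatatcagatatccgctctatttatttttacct
Tgfb1: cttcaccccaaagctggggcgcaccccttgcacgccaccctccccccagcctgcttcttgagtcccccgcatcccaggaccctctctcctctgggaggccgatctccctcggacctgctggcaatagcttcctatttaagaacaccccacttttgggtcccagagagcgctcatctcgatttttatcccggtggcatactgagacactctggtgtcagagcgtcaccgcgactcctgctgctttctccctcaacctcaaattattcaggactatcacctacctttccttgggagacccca

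CAGAC, searched on both strands, had 3 matches in the Pmepa1 window and 2 in the Bmp4 window, and 0 in the windows of the other 6 genes. It occurred in 50.1% of the 33469 promoter windows in the table, so that a match is common. The cAMP response element TGACGTCA had 1 match in the Pmepa1 window, where it overlaps a CAGAC, 0 in the other 7, and a share of 1.83% over all windows. The AP-1 element TGANTCA had 0 matches among the 8 genes and a share of 7.33% over all windows. The GC box GGGCGG, present in 33.1% of all windows, had 2 matches in Pmepa1, 3 in Bmp4, 3 in Tgfbr1, 1 in Tgfbr2, 1 in Tgfbr3, and 0 in Tgfb1, Tgfb2, and Tgfb3. The Pmepa1 window was 78.0% G and C, that of Tgfb3 47.7%, and the median window 51.7%. A match is a run of letters and not a measured binding site.

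The first question was how the genes changed after fracture. Pmepa1 was called higher at all 5 times, with its highest signals at 1 week. Its calls at 4 and 6 weeks stood close to the threshold (limma adjusted p = 0.0469 and 0.0470). At these times the young arrays were at 1.06 and 0.992 of their own no fracture array. Tgfb3 rose at 3 days, 1 week, and 2 weeks on both of its probe sets, and its calls ended there. Tgfb1 and Tgfb2 did not pass the test at any time, and of their 10 values that of Tgfb1 at 3 days had an unadjusted p below 0.05 (0.0278). Of the 5 tested probe sets, 3 were higher at 3 days (24.5% of all tested probe sets were higher), 3 at 1 week (14.3%), 3 at 2 weeks (12.8%), 1 at 4 weeks (5.05%), and 1 at 6 weeks (3.19%), by limma with an adjusted p below 0.05. None was called lower at any time, when 19.7%, 10.5%, 8.27%, 1.43%, and 1.20% of all tested probe sets were lower at these times in order.

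**Figure D1:**
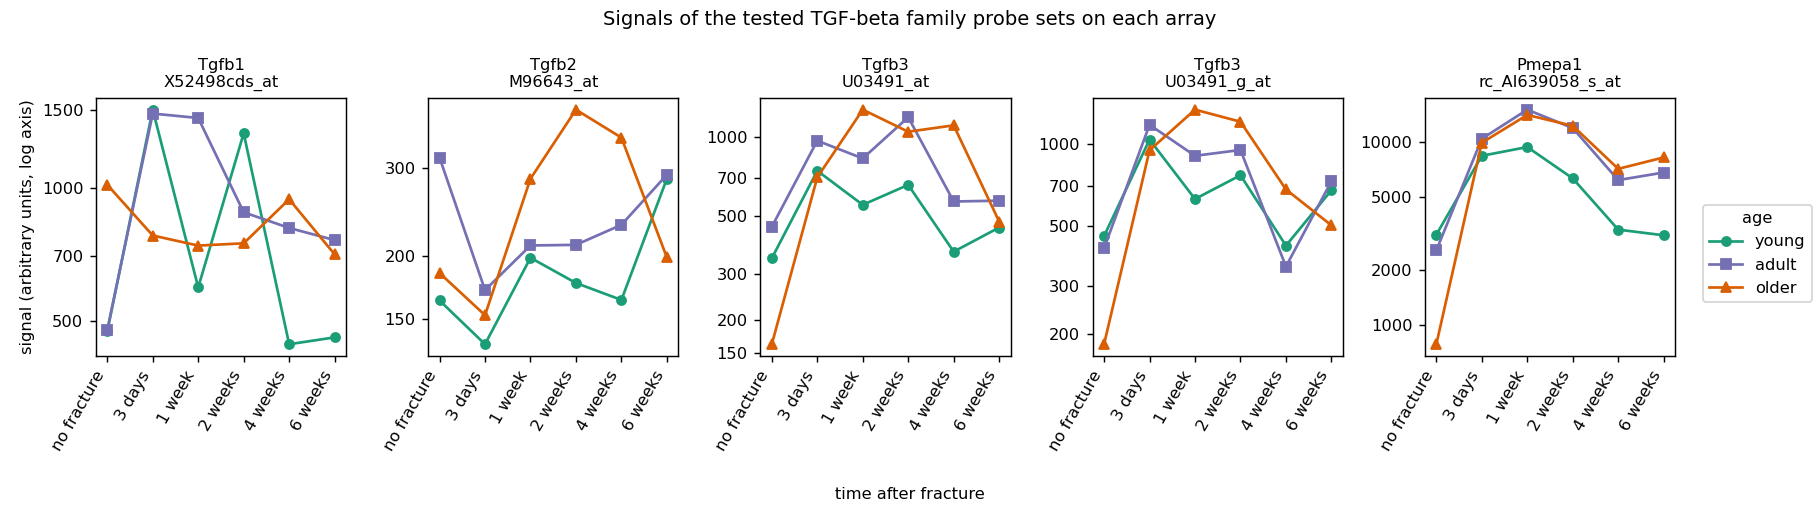
Signal of each tested probe set (arbitrary units, log axis) against time after fracture, with 1 point per array and a line for each age. Pmepa1 reached 9349.9 to 14958.6 at 1 week, and the older no fracture array, at 782.6, was the lowest of its 18 points.

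The ligand Tgfb1 is the most studied of the TGF-betas and is abundant in platelets and bone matrix. Probe set X52498cds_at measured 473.4 without fracture in young rats, and 1503.1, 595.4, 1329.2, 442.9, and 459 at the 5 later times in order. In adult rats it was 477.3 without fracture, followed by 1472.8, 1439.2, 880.6, 811.7, and 761.8. In older rats it was 1016.4 without fracture, followed by 780.3, 740.4, 749.2, 942.4, and 707.4. The older no fracture array was above the other no fracture arrays and above all 5 later older arrays, while the 5 later adult arrays were all above theirs.

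Over the 3 ages Tgfb1 averaged 1252.1 ± 408.8 at 3 days and 655.7 ± 312.4 without fracture (SD, n = 3 arrays each), and the groups overlapped. The log2 fold change was 0.97 ± 0.40 (SE, limma adjusted p = 0.0604) at 3 days. At 1, 2, 4, and 6 weeks it was 0.49, 0.64, 0.19, and 0.04, with adjusted p of 0.3959, 0.2887, 0.8614, and 0.9769. Without the older 3 days array the change at 3 days was 1.36 (adjusted p = 0.0184), and without the older no fracture array it was 1.39 (adjusted p = 0.0130). It was also called, with a change near that over all arrays, without the young 2 weeks array (0.97, adjusted p = 0.0427) and with equal array medians (0.98, adjusted p = 0.0425). Platelet genes moved with time in the opposite direction, since the sum of the 4 on the array was 1711 to 3629 at 3 days and 5298 to 18174 without fracture, and it was highest on the older no fracture array. Their part in the Tgfb1 signal was not tested.

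Tgfb2, the ligand that depends most on the co-receptor Tgfbr3, was measured by M96643_at at 163.2 without fracture in young rats, and then at 133.4, 198.7, 176.9, 163.6, and 286.1. Adult rats had 315.4 without fracture, and then 171.2, 210.3, 210.9, 231.3, and 291.4. Older rats had 185.2 without fracture, and then 152.5, 286.1, 393.3, 345.7, and 199. All 3 ages were below their own no fracture array at 3 days, and the groups of arrays overlapped at every time. The log2 fold change was -0.48 ± 0.31 (SE, limma adjusted p = 0.2194) at 3 days and between 0.11 and 0.27 at the later times, where the lowest adjusted p was 0.6897. The signals were low, and 9 of the 18 arrays were at 200 or more.

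Tgfb3 encodes a TGF-beta that in mice is needed for closure of the palate and is made in developing cartilage. On U03491_at it was 345 without fracture in young rats, followed by 744, 551.6, 657.3, 365.6, and 451.9. In adult rats it was 454.7 without fracture, followed by 969, 829, 1190.3, 568, and 572.1. In older rats it was 162.2 without fracture, followed by 702.1, 1272.3, 1048.2, 1108.6, and 476.5. All arrays at 3 days, 1 week, and 2 weeks were above all 3 arrays without fracture. The share of all probe sets whose arrays separated in this way was not counted, here or below.

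The second probe set, U03491_g_at, gave 458.3 without fracture in young rats, followed by 1040, 627.8, 768.2, 422.5, and 676.3. Adult rats had 413.4, followed by 1179.2, 906.1, 952.2, 353.8, and 730.2. Older rats had 182.9, followed by 949.9, 1340.9, 1210.4, 681, and 502.1. Again no array at 3 days, 1 week, or 2 weeks overlapped with those without fracture. On this probe set the 6 weeks arrays, at 502.1 to 730.2, were also above those without fracture, at 182.9 to 458.3, though the change was not called. Both probe sets stand on the same sequence record and are not independent, and their log2 signals correlated over the 18 arrays with a Pearson r of 0.88.

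At 3 days Tgfb3 was 2.71-fold higher on U03491_at (log2 1.44 ± 0.38, SE, limma adjusted p = 0.0072) and 3.23-fold higher on U03491_g_at (log2 1.69 ± 0.36, adjusted p = 0.0017). At 1 week the log2 fold changes were 1.51 (adjusted p = 0.0092) and 1.49 (adjusted p = 0.0070), and at 2 weeks they were 1.67 (adjusted p = 0.0058) and 1.56 (adjusted p = 0.0063). At 4 weeks the values were 1.06 (adjusted p = 0.1228) and 0.52 (adjusted p = 0.4780), and at 6 weeks 0.76 (adjusted p = 0.2899) and 0.95 (adjusted p = 0.1535). The cartilage genes were higher at these times too, but they climbed on to 2 weeks. The sum of the 4 on the array was 2240 to 3558 at 3 days, 9016 to 16675 at 1 week, 16069 to 22061 at 2 weeks, and 180 to 1198 without fracture. Tgfb3 averaged 805.0 at 3 days and 965.3 at 2 weeks on U03491_at, and 1056.4 and 976.9 on U03491_g_at. The 6 fibrous matrix genes had sums of 48189 to 59217, 42863 to 67363, and 40862 to 55020 at 3 days, 1 week, and 2 weeks and 4806 to 20721 without fracture. The 6 osteoblast and bone matrix genes had 69948 to 90096, 69529 to 122627, and 83938 to 108373 at the same times and 21608 to 65959 without fracture. Their part in the Tgfb3 signal was not tested. The 1 week calls needed the older 1 week array, without which they were 1.19 (adjusted p = 0.0676) and 1.17 (adjusted p = 0.0553). Without the older no fracture array U03491_at at 1 week was 0.94 (adjusted p = 0.0535), and in a fit of only the 6 arrays compared both probe sets missed the threshold at 1 week (adjusted p = 0.0585 and 0.0588) and 2 weeks (0.0542 and 0.0745).

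Pmepa1 encodes a membrane protein that is induced by TGF-beta and holds back its signaling by binding Smads. Probe set rc_AI639058_s_at, of a kind whose probes can match more than one transcript, had a signal of 3106.1 without fracture in young rats, followed by 8371.3, 9349.9, 6300.6, 3307, and 3080.7. Adult rats had 2547.7 without fracture, followed by 10370.4, 14958.6, 11863.3, 6168.7, and 6783.7. Older rats had 782.6 without fracture, followed by 9867.8, 13997.2, 12210.2, 7103.4, and 8203.2. Every array from 3 days to 4 weeks was above all 3 arrays without fracture, and at 6 weeks the young array lay just below the young array without fracture.

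Over the ages Pmepa1 averaged 12768.6 ± 2999.4 at 1 week and 2145.5 ± 1212.9 without fracture (SD, n = 3 arrays each). It was 5.17-fold higher at 3 days (log2 2.37 ± 0.43, SE, limma adjusted p = 5.07e-04), 6.81-fold at 1 week (log2 2.77, adjusted p = 3.48e-04), and 5.28-fold at 2 weeks (log2 2.40, adjusted p = 0.0013). It was 2.86-fold higher at 4 weeks (log2 1.52, adjusted p = 0.0469) and 3.03-fold at 6 weeks (log2 1.60, adjusted p = 0.0470). The fibrous matrix genes moved with it, since the sum of 6 of them was 42863 to 67363 at 1 week and 4806 to 20721 without fracture, and their part in the Pmepa1 signal was not tested. The calls at 4 and 6 weeks stood close to the threshold and held under 2 and 1 of 9 alternative settings. The 4 weeks call held without the young no fracture, the young 6 weeks, or the older 6 weeks array and was lost without any of the other 15, and the 6 weeks call held only without the young no fracture or the young 6 weeks array. Without the older no fracture array the log2 fold change was 0.75 at 4 weeks (adjusted p = 0.1595) and 0.83 at 6 weeks (adjusted p = 0.1180), against 1.60 at 3 days, 2.00 at 1 week, and 1.63 at 2 weeks, which remained called.

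**Figure D2:**
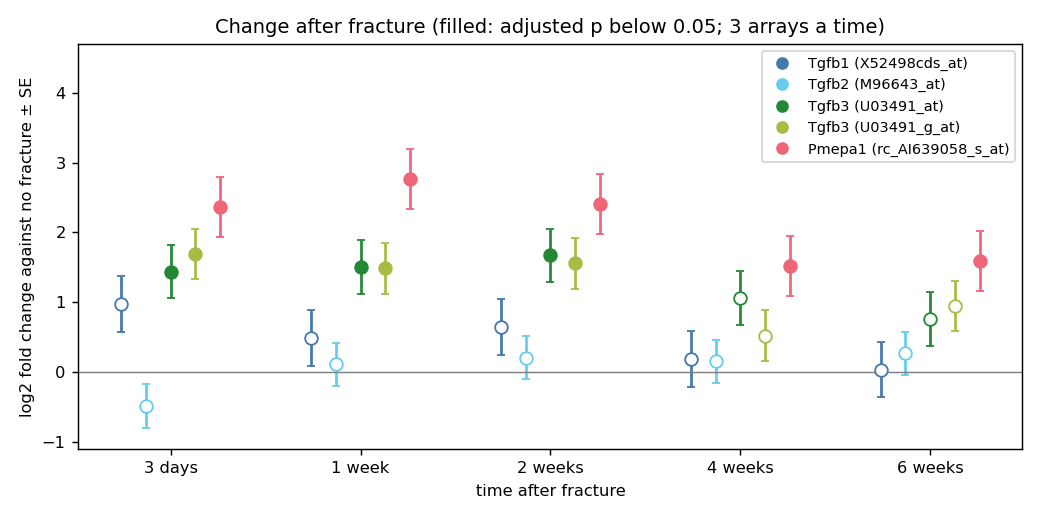
Log2 fold change against no fracture for each tested probe set at each time (points), with the SE of limma as bars and filled points for an adjusted p below 0.05 (3 arrays a time). Pmepa1 was filled at all 5 times, Tgfb3 at 3 days, 1 week, and 2 weeks, and Tgfb1 and Tgfb2 were open throughout.

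The late times after fracture were then compared with earlier ones. Pmepa1 fell by 1.03 on the log2 scale at 4 and 6 weeks against 1 and 2 weeks (SE 0.30, limma adjusted p = 0.0381, n = 6 arrays each), 1 of the 5 tested probe sets, where 5.61% of all tested probe sets were lower. Its call was lost without the young 1 week, 4 weeks, or 6 weeks, the adult 1 week, 2 weeks, 4 weeks, or 6 weeks, or the older 1 week or 2 weeks array, with adjusted p of 0.0572 to 0.114. Tgfb3 had -0.68 ± 0.27 (adjusted p = 0.1173) and -0.79 ± 0.26 (adjusted p = 0.0566), and Tgfb1 had -0.46 (adjusted p = 0.3214). Both Tgfb3 values were called without the older no fracture array (adjusted p = 0.0323 and 0.0123) or the older 4 weeks array (adjusted p = 0.0365 and 0.0361), and U03491_g_at was also called without the young no fracture array (0.0397) or the young 1 week array (0.0361). Tgfb2 had 0.05 (adjusted p = 0.9083).

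The receptors and Bmp4 were dim. Tgfbr1, the type I receptor kinase, had signals of 35.5 to 105.3 on L26110_at and 16.8 to 77.5 on S81584_s_at, so that 16 and 18 of 18 arrays were below the floor. Tgfbr3, the co-receptor betaglycan, had 14.7 to 107.5 on M80784_s_at, with 15 arrays below the floor. On M77809_at it ran from 51.1 on the older 3 days array to 250.7 on the older 4 weeks array, with 6 arrays below the floor and 2 at 200 or more. In older rats that probe set was 83.3 without fracture, followed by 51.1, 168.8, 110.8, 250.7, and 207.7.

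Bmp4, a ligand that drives bone formation in many settings, had signals of 26.1 to 164.5 on Z22607_at, with 8 arrays below the floor and 0 at 200 or more. In young rats it was 65 without fracture, followed by 123.6, 118.7, 129, 117.2, and 140.7. In adult rats it was 102.5, followed by 55.3, 69.6, 62.6, 26.1, and 141.5, and in older rats 103.3, followed by 59.5, 92, 38.8, 164.5, and 110.5. Young rats had all 5 later arrays above their no fracture array, and adult rats had 4 of 5 below theirs. At 6 weeks the 3 arrays of Bmp4, at 110.5 to 141.5, were above the 3 without fracture, at 65 to 103.3. At 1 week those of Tgfbr1 on L26110_at, at 35.5 to 42.5, were below the 3 without fracture, at 49.3 to 75.3, all of them under the floor. The share of all probe sets whose arrays separated in this way was not counted, so that neither case is read as a change. None of the 5 probe sets of Tgfbr1, Tgfbr3, and Bmp4 passed the filter, and so none was tested.

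**Figure D3:**
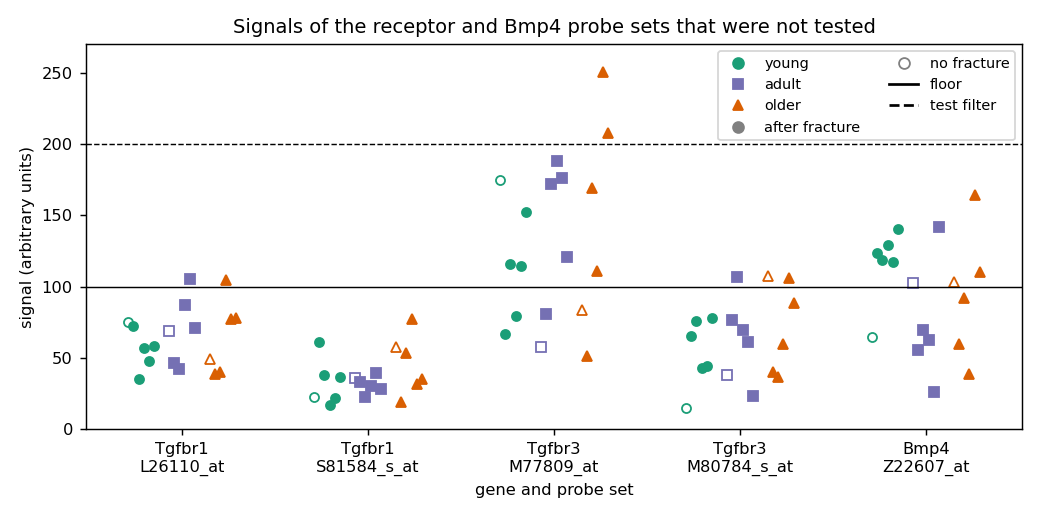
Signals (arbitrary units) of the 5 probe sets of Tgfbr1, Tgfbr3, and Bmp4 that were not tested, with 1 point per array, filled after fracture and open without, by age. Solid and dashed lines mark the floor of 100 and the filter at 200, which only 2 older points of Tgfbr3 on M77809_at passed.

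The next question was whether the ages differed during healing, over the 15 arrays after fracture with 5 to an age. Pmepa1 was the member that differed, and it was higher in older than in young rats. Its signals averaged 10276.4 ± 2833.6 in older rats and 6081.9 ± 2858.2 in young rats (SD, n = 5 arrays each), and the ranges of 7103.4 to 13997.2 and 3080.7 to 9349.9 overlapped, since the level also moved with time. At the same time the older array was always the higher, with ratios of older to young of 1.18, 1.5, 1.94, 2.15, and 2.66 from 3 days to 6 weeks (higher in 5 of 5). The log2 fold change was 0.86 ± 0.15 (SE, limma adjusted p = 0.0387), 1 of the 5 tested probe sets, where 0.0857% of all tested probe sets were higher.

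The call in older against young rats held without the young 3 days, the young 1 week, the adult 3 days, or the older 3 days array and was lost without any of the other 11, where the log2 fold change stayed at 0.74 or more. It held under 4 of 9 alternative settings. Without the young 6 weeks array, the one with the low Gapdh ratio, it was 0.74 (adjusted p = 0.1064). The summed signal of 6 fibrous matrix genes was 48188.8 in older and 59217 in young rats at 3 days, where it was lower in older rats and Pmepa1 was not. It was higher in older rats at the other 4 times, with 56918.6 in older and 42863.4 in young rats at 1 week, 55019.7 and 40861.7 at 2 weeks, 36433.1 and 26687.1 at 4 weeks, and 40344 and 17448.9 at 6 weeks. The part of these genes in the difference was not tested.

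Older and adult rats had close Pmepa1 signals, with ratios of older to adult of 0.952, 0.936, 1.03, 1.15, and 1.21 from 3 days to 6 weeks and a log2 fold change of 0.07 ± 0.15 (limma adjusted p = 0.8090). Adult and young rats differed by 0.79 ± 0.15 (adjusted p = 0.1053), with adult higher at 5 of 5 times. That value was called without the young 3 days array (0.93, adjusted p = 0.0426) or the adult 3 days array (0.83, adjusted p = 0.0499). No member was called in older against adult rats (0 also at an unadjusted p below 0.05, with 3.73% of all tested probe sets called in either direction and 2.38% higher). In adult against young rats 0 members were called by limma, 2 had an unadjusted p below 0.05, and 0% of all tested probe sets were called.

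Tgfb3 on U03491_at averaged 921.5 ± 324.1 in older and 554.1 ± 152.2 in young rats (SD, n = 5 arrays each), with older above young at 4 of 5 times. The log2 fold change was 0.69 ± 0.22 (SE, limma adjusted p = 0.1089), and without the older 3 days array it was 0.87 (adjusted p = 0.0274). U03491_g_at had 0.38 ± 0.22 (adjusted p = 0.3415) and was higher in older rats at 3 of 5 times. Tgfb1 had 0.05 ± 0.28 (adjusted p = 0.9536) and Tgfb2 0.49 ± 0.23 (adjusted p = 0.2458) in the same comparison.

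Whether the age difference after fracture departed from that without fracture was then tested, with the reservation that it rests on 1 no fracture array per age. The fit matched those arrays exactly, so that the SE and p of a departure come from the scatter of the arrays after fracture. They hold no measure of how no fracture arrays vary. Pmepa1 in older against young rats departed by 2.85 ± 0.37 on the log2 scale (SE, limma adjusted p = 0.0023), 1 of the 5 tested probe sets, where 1.58% of all tested probe sets departed upward. The older array without fracture had 0.252 of the young signal, while the ratios after fracture were all above 1. Against its own no fracture array Pmepa1 in older rats was 12.6-fold, 17.9-fold, 15.6-fold, 9.08-fold, and 10.5-fold higher from 3 days to 6 weeks in order. Adult rats had 4.07-fold, 5.87-fold, 4.66-fold, 2.42-fold, and 2.66-fold, and young rats had ratios of 2.7, 3.01, 2.03, 1.06, and 0.992.

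In older against adult rats, a comparison added after the values were seen, Pmepa1 departed by 1.77 ± 0.37 (SE, limma adjusted p = 0.0351), where 0.557% of all tested probe sets departed upward. That call was lost without the adult 3 days, 1 week, 4 weeks, or 6 weeks array or the older 2 weeks or 6 weeks array (adjusted p of 0.0507 to 0.0714). Adult against young rats, added in the same way, gave 1.07 ± 0.37 (adjusted p = 0.6004). Tgfb3 departed by 1.78 ± 0.55 (adjusted p = 0.1203) and 1.70 ± 0.53 (adjusted p = 0.1236) in older against young rats, short of the threshold on both probe sets. The older no fracture array was low for Tgfb3 too, at 0.47 and 0.399 of the young signal.

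The same array had the lowest or the highest sum of the 3 no fracture arrays in each marker list given here. Without fracture the summed signal of 6 fibrous matrix genes was 20721 in young, 7110.7 in adult, and 4805.6 in older rats. The adult array was thus closer to the older than to the young array. The 6 osteoblast and bone matrix genes summed to 65959 in young, 40341.2 in adult, and 21608.1 in older rats. Skeletal muscle genes were also lowest on the older array, at 135150.3 in young, 160167.6 in adult, and 77295.6 in older rats. Marrow and blood genes were highest there, with neutrophil sums of 40474.8 in young, 39265.9 in adult, and 67994.4 in older rats, macrophage sums of 11792.4, 8421.9, and 19225.6, and platelet sums of 11390, 5298.2, and 18173.5 in the same order of ages. Of the 6 fibrous matrix genes, 4 departed upward in older against young rats, with a median of 2.93, and 2 of the 6 osteoblast genes did, with a median of 1.70. All tested probe sets had a median of -0.04, and 1.58% of them departed upward. In older against adult rats 0 genes of either list were called, with medians of 1.08 and 0.43, where 0.557% of all tested probe sets departed upward. In adult against young rats 0 were called, with medians of 1.80 and 1.15, where 0% of all tested probe sets were called. The part of the cell content of the older no fracture array in the Pmepa1 value was not tested.

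**Figure D4:**
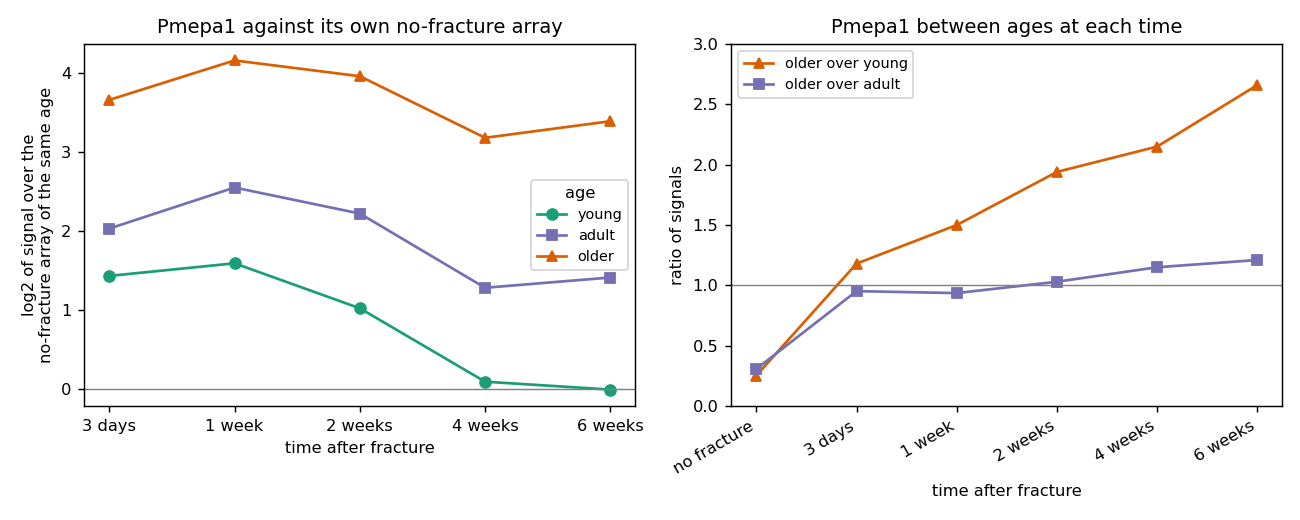
Left, log2 of the Pmepa1 signal over the no fracture array of the same age at each time, 1 point per array, with older above adult and adult above young at all 5 times. Right, the ratio of Pmepa1 signals of older to young and of older to adult rats, which without fracture were 0.252 and 0.307.

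The probe sets most like each member in their log2 signal over the 18 arrays were listed as a description. They were Timp2, an inhibitor of matrix metalloproteinases, for Pmepa1 (Pearson r = 0.971), followed by the heparan sulfate proteoglycan gene Gpc1 (0.952) and the coatomer gene Copz2 (0.949). For Tgfb3 they were Gstm5 (0.892), P3h4 (0.882), and Yif1a (0.880), for Tgfb1 Rpl3 (0.834), Pfkl (0.813), and Stx8 (0.798), and for Tgfb2 Grk6 (0.807), Or1ad6 (0.799), and Abcc6 (0.790). Tgfb3 and Pmepa1 correlated with an r of 0.89 and 0.86 for the probe sets of Tgfb3, while Tgfb1 and Pmepa1 had 0.37 and Tgfb2 and Pmepa1 0.09. The arrays share time and age, and the most alike were picked from all tested probe sets.

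Related genes of the pathway were read from lists. Among other ligands of the superfamily, 13 were on the array and 5 were tested. Bmp3, which opposes bone formation by other BMPs, was 286.9, 328.4, and 257.5 at 3 days in young, adult, and older rats and 105.7, 55.8, and 54.1 without fracture. It rose at 3 days (log2 1.51 ± 0.26, SE, limma adjusted p = 3.71e-04) and 2 weeks (log2 1.36, adjusted p = 0.0019), with signals below 100 at the floor. Inha, the inhibin alpha subunit, fell by 1.27 at 3 days (adjusted p = 0.0059), and Bmp6, Inhba, and Amh had no call at any time after fracture. Of all tested probe sets, 24.5% were higher and 19.7% lower at 3 days, and 12.8% were higher at 2 weeks.

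Of 8 other receptors on the array, 4 were tested. Acvrl1, a type I receptor of blood vessels, rose at 3 days (log2 0.83 ± 0.20, limma adjusted p = 0.0040), 1 week (1.06, adjusted p = 0.0013), and 2 weeks (0.94, adjusted p = 0.0039). Acvr1, a BMP type I receptor, rose at 3 days (1.03 ± 0.32, adjusted p = 0.0164), and Acvr1b, an activin type I receptor, fell by 0.69 at 3 days (adjusted p = 0.0264). Acvr2b had no call after fracture. Of all tested probe sets, 24.5% were higher and 19.7% lower at 3 days, and 14.3% and 12.8% were higher at 1 and 2 weeks. Of 6 Smad genes and partners on the array, Smad2 and Smad4 were tested and had no call, with list medians of 0.46, 0.13, 0.09, 0.21, and -0.02 at the 5 times in order.

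Extracellular regulators had 11 genes on the array and 6 tested, of which 3, 4, 4, 2, and 2 were higher at the 5 times in order, when 24.5%, 14.3%, 12.8%, 5.05%, and 3.19% of all tested probe sets were higher. Fstl1, a secreted glycoprotein of the follistatin family, was higher at all 5 times, by 5.04-fold at 1 week (log2 2.33 ± 0.34, limma adjusted p = 2.10e-04). Bgn, a small proteoglycan of bone, was 4.47-fold higher at 1 week (log2 2.16, adjusted p = 1.95e-04), and Dcn, which binds TGF-beta, rose at 1 week (log2 1.85, adjusted p = 0.0065) and 2 weeks (log2 1.81, adjusted p = 0.0088). Furin, the protease that cuts the precursors of TGF-beta and BMP, fell by 1.07 at 1 week (adjusted p = 0.0031). It was called lower at every time but 4 weeks, when 19.7%, 10.5%, 8.27%, and 1.20% of all tested probe sets were lower at these 4 times in order.

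Among known TGF-beta target genes, 13 were tested of 14 on the array. Of them 12, 13, 12, 6, and 5 were higher and 0 lower at the 5 times in order, when 24.5%, 14.3%, 12.8%, 5.05%, and 3.19% of all tested probe sets were higher, with median log2 fold changes of 1.93, 1.88, 1.95, 1.09, and 1.23 against medians of 0.01, 0.01, -0.00, 0.04, and 0.05 over all tested probe sets. Timp1, an inhibitor of matrix proteases, was 7.22-fold higher at 3 days (log2 2.85 ± 0.26, limma adjusted p = 6.58e-06) and still 3.26-fold at 6 weeks (log2 1.71, adjusted p = 0.0021). Tagln, a smooth muscle actin-binding protein, was 5.16-fold higher at 1 week (log2 2.37, adjusted p = 2.19e-04), and Postn, a matrix protein of periosteum, 7.99-fold (log2 3.00, adjusted p = 5.45e-04). At 4 and 6 weeks against 1 and 2 weeks 6 of the 13 were lower, where 5.61% of all tested probe sets were: Tagln, Junb, Tsc22d1, Cdkn1a, Lox, and Postn. Col3a1, Fn1, Postn, and Lox also stand on the list of fibrous matrix genes.

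Among known BMP target genes, 9 were on the array and tested. Of them 7, 6, 5, 5, and 2 were higher at the 5 times, when 24.5%, 14.3%, 12.8%, 5.05%, and 3.19% of all tested probe sets were higher, with medians of 1.14, 1.23, 1.32, 0.85, and 1.00. Id3, which blocks basic helix-loop-helix factors, was 2598.3, 3455.8, and 3102.3 at 3 days in young, adult, and older rats and 1266.3, 706.8, and 654.5 without fracture, and it rose 3.62-fold (log2 1.86 ± 0.29, limma adjusted p = 1.59e-04). The homeobox genes Dlx5 and Msx1 were 3.08-fold (log2 1.62, adjusted p = 0.0034) and 3.05-fold (log2 1.61, adjusted p = 0.0045) higher at 2 weeks. For Msx1 the adult and older no fracture signals, 35.2 and 71.8, were raised to the floor. Young rats had 241.8 without fracture and 349.9 at 2 weeks. Ibsp, bone sialoprotein, was 10.8-fold higher at 3 days (log2 3.44, adjusted p = 1.60e-05) and 5.66-fold at 6 weeks (log2 2.50, adjusted p = 0.0021). Msx2 and Bglap, the gene of osteocalcin, were lower at 3 days, when 19.7% of all tested probe sets were lower. Alpl, Ibsp, and Bglap also stand on the list of osteoblast and bone matrix genes. In older against young rats after fracture 0 of 13 TGF-beta target genes were called by limma, with 7 at an unadjusted p below 0.05 and a median of 0.40, and 0 of 9 BMP target genes, with 2 at an unadjusted p below 0.05 and a median of 0.14, against a median of 0.04 over all tested probe sets. Of all 4669 tested probe sets 7 were called in that comparison, 4 of them higher (0.0857%), so that these counts of 0 say little of the target genes.

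**Figure D5:**
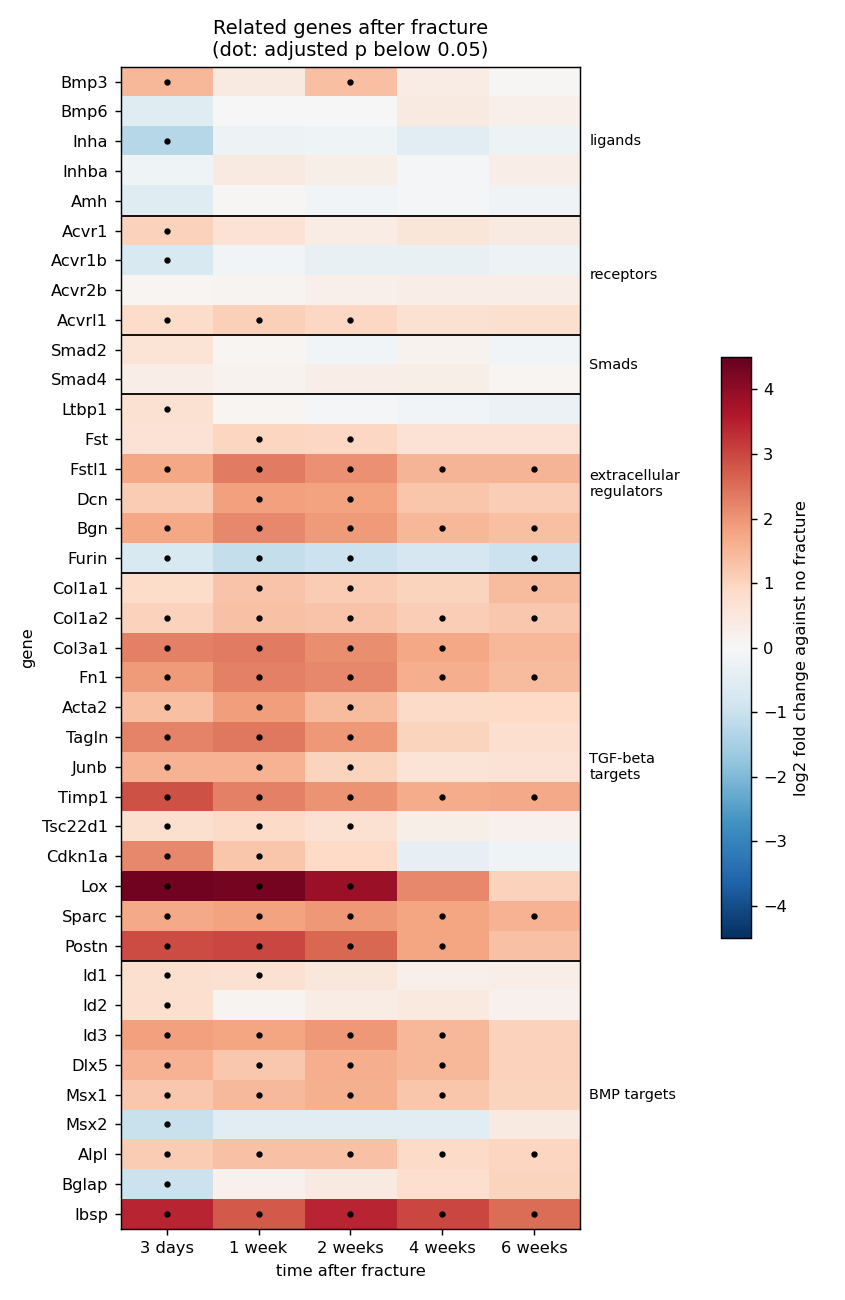
Log2 fold change against no fracture (colour, red higher and blue lower) of the tested related genes by list at each time after fracture, with a dot for an adjusted p below 0.05. The TGF-beta targets had 12, 13, 12, 6, and 5 dots of 13 from 3 days to 6 weeks.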

How the data were processed

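The deposited values are signal intensities of Affymetrix rat oligonucleotide arrays, which the authors computed with Microarray Suite 5.0 and brought to a mean of 500 per array. Present and absent calls and the other series of arrays of the study were not analysed here. Symbols came from the platform annotation, with 6994 probe sets updated through gene identifiers, and promoters from RefSeq. Signals below 100 were set to 100 and log2 was taken. Probe sets other than the 59 controls that reached 200 on 3 or more arrays were tested with limma 3.58.1 in R 4.3.3 (two-sided, eBayes with trend), with p adjusted by Benjamini-Hochberg over all 4669 and a threshold of 0.05. Times were compared over 18 arrays with age as a term, ages over the 15 fractured arrays with a term for time, and departures over 18 arrays with age by fracture. Steps were tested on simulated data. Every member probe set is named, and for each list up to 4 called genes with the largest changes after fracture. Each related or marker gene was read from 1 probe set, that of highest mean signal, and its other probe sets were not counted. The genes most like Tgfb3 were found with U03491_g_at. The members, lists, and rules were chosen with earlier results of these data known, and 2 departures were added after the values were seen. Alternatives were other floors and filters, quantile normalization, equal array medians, other terms, only the arrays compared, the methods' t-test, and each array left out. Each age at each time was 1 array, so that replicate numbers pair nothing. Figures used Python 3.11.15 and matplotlib 3.10.9.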

Additional observations from a re-analysis of the deposited data

Results flagged for a closer look

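Pmepa1 stood out because older and young rats differed after fracture in another way than without it, with a departure of 2.85 ± 0.37 on the log2 scale (SE, limma adjusted p = 0.0023), and the older to young ratio was above 1 at 5 of 5 times. The departure between older and adult rats was 1.77 ± 0.37 (adjusted p = 0.0351). Both rest on 1 no fracture array per age, of which the older, at 782.6, was far below the adult at 2547.7 and the young at 3106.1. The SE and p of both departures hold no measure of how no fracture arrays vary.

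Tgfb1 stood out because all 5 older arrays after fracture were below the older no fracture array, at ratios of 0.696 to 0.927, while all 5 adult arrays were above theirs, at ratios of 1.6 to 3.09. The departure between older and adult rats was -1.49 ± 0.68 (limma adjusted p = 0.2304), so that it did not pass the test.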

How the results depend on the processing

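No called value of a member probe set changed its sign under any alternative, and the alternatives were not run for single related genes. The count of member probe sets called changed most with the methods' t-test, which after adjustment called 0 at each of the 5 times, 0 for 4 and 6 weeks against 1 and 2 weeks, and 0 for older against young rats. It was run here with 1 array per age and time and adjusted over all tested probe sets. The paper ran its t tests of time on more arrays a time, with the replicates of all 3 ages pooled. Its t tests of age set young against older rats, with 2 times pooled and 3 replicates at each. With only the arrays compared, the count was 1 at 1 week, 0 at 2, 4, and 6 weeks, 3 for 4 and 6 weeks against 1 and 2 weeks, and 0 for older against young rats. The 4 weeks and 6 weeks counts were 0 with a floor of 20, a floor of 200, no filter, equal array medians, or no age term, and at 6 weeks also with quantile normalization. The count for 4 and 6 weeks against 1 and 2 weeks was 0 with no filter, quantile normalization, or no age term and 2 with a filter of 500 or equal array medians. That for older against young rats was 0 with a floor of 200, no filter, or no time term. At 3 days it was 4 with equal array medians. With an array left out the counts ran from 3 to 4 at 3 days, 1 to 3 at 1 week, 3 to 3 at 2 weeks, 0 to 1 at 4 and at 6 weeks, 0 to 3 for 4 and 6 weeks against 1 and 2 weeks, 0 to 2 for older against young, 0 to 1 for adult against young, and 0 to 0 for older against adult rats. The departure of Pmepa1 between older and young rats was called in all 6 settings and 16 leave-outs that could be fitted, from 2.73 to 3.09, but none without the older or young no fracture array could be fitted. Equal array medians moved the median of all tested probe sets at 4 weeks to -0.10, against 0.04, in older against young rats to -0.08, against 0.04, and in older against adult rats to -0.10, against 0.07. It moved the share of calls that were higher at 4 weeks to 62.6%, against 77.9%, at 6 weeks to 59.6%, against 72.7%, for 4 and 6 weeks against 1 and 2 weeks to 40.6%, against 54.0%, for older against young rats to 33.3%, against 57.1%, and for older against adult rats to 20.1%, against 63.8%. The causes were not tested. No paired analysis was possible because each age at each time was 1 array, so that groups share no more than 1 replicate number, and age or time stood in the fits as a term. Dim probe sets limit what can be said of the receptors and Bmp4.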

Other observations

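Acvr1, the BMP type I receptor, had higher signals in older than in adult rats at each time after fracture. Older rats had 342.2, 364.9, 270.1, 257.4, and 253 from 3 days to 6 weeks, and adult rats had 278.5, 120.7, 93.1, 168.6, and 144.1. The log2 fold change was 0.95 ± 0.21 (SE, limma adjusted p = 0.0382, n = 5 arrays each), with 2.38% of all tested probe sets higher in that comparison. The call was lost with no filter, without the time term, without the young 4 weeks array, and without any of the adult or older arrays at 1, 2, 4, and 6 weeks, since 0 of all tested probe sets were called in each of these fits. Whether it held in the other alternative fits was not looked up. Without fracture the older array, at 113.7, was below the adult array, at 148.3, and the departure between these ages was 1.33 ± 0.52 (adjusted p = 0.1693). Acvr1 was the gene called among the 4 tested receptors in this comparison, and it was singled out after its values were seen.

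Of the 13 tested TGF-beta target genes, 6 departed upward in older against young rats as Pmepa1 did (Col1a1, Col1a2, Col3a1, Lox, Sparc, and Postn), with a median of 1.74 over the list and -0.04 over all tested probe sets, of which 1.58% departed upward. Col3a1, Lox, and Postn also stand on the list of fibrous matrix genes and Col1a1 and Sparc on that of bone matrix genes, whose summed signals were lowest on the older array without fracture. Dcn was the 1 of 6 extracellular regulators that did so, and 0 of 9 BMP target genes did by limma (3 at an unadjusted p below 0.05), with a median of 0.71. In older against adult rats 0 of the 13 TGF-beta target genes departed by limma, with a median of 0.49, whereas Pmepa1 was called there. In that comparison 0.557% of all tested probe sets departed upward. In adult against young rats 0 of the 13 were called, as were 0% of all tested probe sets. Their median there was 1.07, with 9 at an unadjusted p below 0.05. These values rest on the same 3 no fracture arrays as that of Pmepa1.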
